A study of Triticum aestivum with 4 samples.

Results

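The wheat_miR entries were the 66 miRNAs, of 348 in the deposited table, whose name starts with wheat_miR. By the section headings of the table, 64 of them had been found before in wheat leaves and 2, wheat_miR2693 and wheat_miR5099, were first found in crowns. The paper describes a part of these 64 as putative miRNAs only, and the putative ones are not told apart here. The other 282 listed miRNAs carry miRBase names and are called known miRNAs here. The RNA came from crowns, the part at the base of the stem around the shoot apical meristem. The plants were of Shimai 22, a cultivar of semi-winter wheat, and grew in the field. Libraries were made at the three-leaf stage, the winter dormancy stage, the spring green-up stage (the double ridge stage of the apex) and the jointing stage. All 4 groups shared cultivar, tissue and growth in the field, and the labels name no allele or agent that sets them apart. Each stage had 1 small RNA library, made by mixing the total RNA of 3 biological replicates equally, so that no difference between stages has a replicate check and no p-value is given. Stage, season and plant age changed together and cannot be told apart. In such bulk libraries, fewer cells that hold a miRNA and less of it per cell cannot be told apart either. The table holds miRNAs only, so the tissue label was not checked against marker genes.

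Most plant miRNAs are cut by DICER-LIKE1 from a hairpin transcript, as a duplex of about 21 nt with 3′ overhangs of 2 nt on each strand. The miRNA strand enters an ARGONAUTE protein and guides it to mRNAs of nearly full complementarity, while the opposite strand, the miRNA*, is usually lost. ARGONAUTE1 mostly takes small RNAs that begin with U. Small RNAs of 24 nt are mostly products of DICER-LIKE3 and guide DNA methylation at repeats and transposable elements. Miniature inverted-repeat transposable elements of the Stowaway type are common in grass genomes and fold back on themselves, and several wheat families of miRBase, such as miR1127, miR1128 and miR1136, resemble them.

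Among the 66 entries, 22 (33.3%) fell into 8 groups of related sequences, which shared a stretch of at least 14 nt with at most 2 mismatches and no gap with some other entry of the group. The sequences of the largest groups are shown because their members overlap in shifted frames. In a group of 5, capitals mark the 10 bases that all of them share, also with the known miR1136.
wheat_miR465: uccgaAUUACUUGUCgcaggu
wheat_miR1009: uuccgaAUUACUUGUCgcaga
wheat_miR652: gaAUUACUUGUCgcgaaaaug
wheat_miR381: AUUACUUGUCgcgaaaaugga
wheat_miR1153: AUUACUUGUCucggaaaugga
miR1136: AUUACUUGUCgcagaaaugga
In a group of 4, capitals mark the 14 bases common to the first 3 entries, and in wheat_miR84 the 10 bases it has in common with wheat_miR1401.
wheat_miR1401: cccuccgUCCCAUAAUAUAAG
wheat_miR1559: uccgUCCCAUAAUAUAAGagc
wheat_miR1250: UCCCAUAAUAUAAGagcguuu
wheat_miR84: CUCCGUCCCAaaauaaguguc
In a group of 3, capitals mark the shared 16 bases.
wheat_miR127: uuUGAAGACUAGUUUAUUaca
wheat_miR128: ucUGAAGACUAGUUUAUUaca
wheat_miR1686: ucaucUGAAGACUAGUUUAUU

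The remaining groups were pairs, shown with the seed (bases 2 to 8 from the 5′ end) in capitals. In 3 of these pairs the seed was the same in both entries. wheat_miR1356 is wheat_miR1202 without its last base.
wheat_miR1202: uUCUUCAAguacuccacuuuu
wheat_miR1356: uUCUUCAAguacuccacuuu
wheat_miR2693: cGCGCUGCccugugagccugc
wheat_miR5099: cGCGCUGCccggugagccucc
wheat_miR4740: aAAAAAGAuugagccgaauaa
wheat_miR553: aAAAAAGAuggaguggcaauuc
wheat_miR30: cAUUUUCCuauagacuugguc
wheat_miR450: uUUUCUCUauaaacuugguca
wheat_miR669: aGUGGCCCaacugcacccugc
wheat_miR354: cAUUGACCcaacugcaggugc
Over all 66 entries there were 62 different seeds, and 8 entries shared theirs with another entry. A seed was shared with a known miRNA by 5 entries, among them wheat_miR381 and wheat_miR1153 with miR1136, and wheat_miR1617 with miR172e-3p. Beyond the seed, wheat_miR1617 did not meet the criterion for related sequences with miR172e-3p. It met it only with the known miR5062a, over 18 bases with 2 mismatches. A number in the name carries no relation to miRBase: wheat_miR390 shared no stretch of this length with miR390a-5p or miR390-3p, the conserved miR390 that triggers trans-acting siRNAs against auxin response factors.

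The entries with the highest values outside these groups are shown with their seeds in capitals, because they carry most of the remaining reads.
wheat_miR1560: uAAACCUUcacaaauucccuug
wheat_miR1544: aGUCUCUGccaauucuucgug
wheat_miR390: uCCGCGAUcaucacgaccaaa
wheat_miR523: uACGGCCUgaugacauccacg
wheat_miR1818: cAUGGCCAgggaaaggaggug

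The entries were almost all of the 21-nt class, and no entry of 24 nt was listed. Of the 66 entries, 54 (81.8%) had 21 nt, 7 had 22 nt, 3 had 20 nt and 2 had 23 nt. Among the 282 known miRNAs 142 (50.4%) had 21 nt and 77 (27.3%) had 24 nt. A comparison of 21-nt with 24-nt sequences was therefore possible only between the 21-nt entries and the 24-nt known miRNAs. The first base was U in 30 entries (45.5%), A in 21, C in 9 and G in 6, and the 30 entries with U held 72.9%, 78.0%, 65.95% and 72.2% of the summed RPM of all entries in stage order. The known miRNAs began with U in 43.3%, and those of 24 nt in 20.8%.

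**Figure D1:**
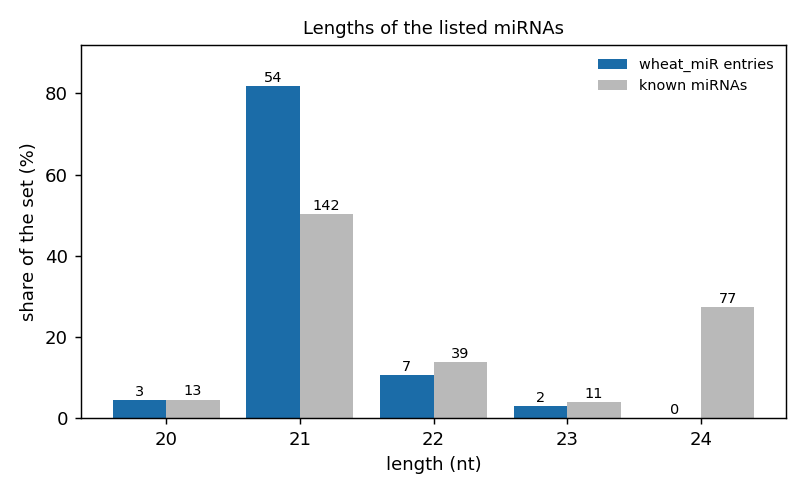
Share of the 66 wheat_miR entries and of the 282 known miRNAs (vertical axis, percent of the set) at each length in nt (horizontal axis), with the number of sequences above each bar. The entries stand at 81.8% at 21 nt and at 0 at 24 nt, where the known miRNAs have 27.3%.

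The values are tags per 1000000 mapped reads (RPM), and the libraries held 20533459 to 21888493 mapped reads as recovered from the values themselves. The sums over the 66 entries were 3154, 5064, 2348 and 1877 RPM in stage order, which were 2.21%, 3.73%, 2.19% and 2.72% of the summed RPM of all listed miRNAs. Most of the excess at dormancy came from wheat_miR1560, without which the shares were 2.21%, 2.61%, 2.19% and 2.32% and dormancy was still the highest. The median entry had 7.82, 9.42, 4.845 and 2.62 RPM in stage order, and the median known miRNA 16.55, 14.85, 16.2 and 9.7 RPM. A few entries held most of the reads. The highest held 36.3% of all entry RPM, the highest 5 held 74.0%, and only 8 entries exceeded 100 RPM in any library. The summed value of all listed miRNAs was lower at each stage than at the one before, from 142826 RPM at three-leaf to 68950 RPM at jointing. Scaling every library to that sum raises a log2 ratio by 0.07 from three-leaf to dormancy, 0.34 from dormancy to green-up, 0.64 from green-up to jointing and 1.05 from three-leaf to jointing, and the median of ratios gives 0.04, 0.44, 0.58 and 1.05.

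wheat_miR1202 led the entries in 3 of 4 libraries. It had 1473.2, 1508.27, 963.52 and 571.18 RPM in stage order, which was a fall by 1.37 on the log2 scale from the first to the last (95% counting interval -1.40 to -1.34). After scaling to the summed RPM of all listed miRNAs its log2 ratio was -0.32, within the threshold of 1. wheat_miR1544 came next among the entries above 0 in all libraries, at 437.24, 625.08, 458.41 and 348.06 RPM. Its highest and lowest values differed by 1.80-fold, and it passed in no comparison. wheat_miR390 stood at 181.73, 270.34, 118.6 and 74.32 RPM, with its peak at dormancy. It was lower at green-up than at dormancy by 1.19 on the log2 scale (-1.26 to -1.12), but by 0.85 and 0.75 under the 2 scalings, within the threshold. wheat_miR1818 peaked at green-up instead, at 52.78, 74.8, 115.08 and 32.88 RPM. Between three-leaf and green-up its log2 ratio was 1.12 (1.02 to 1.23), and from there to jointing it fell by 1.81 (-1.93 to -1.68).

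**Figure D2:**
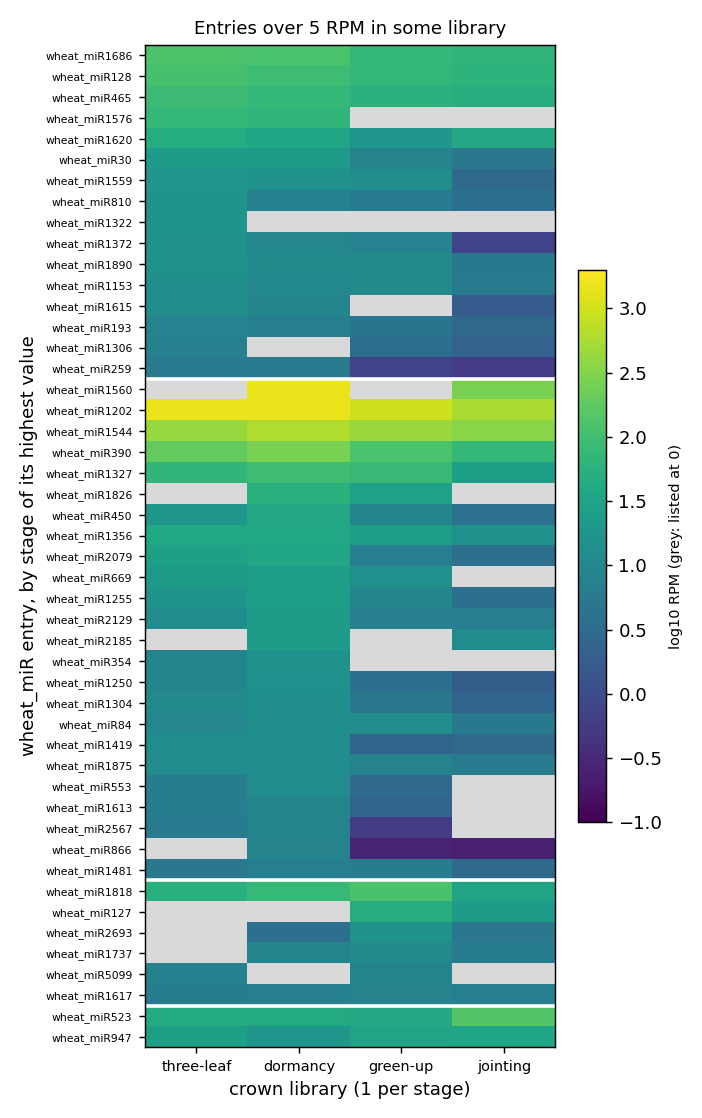
Values of the 48 wheat_miR entries that exceeded 5 RPM in some library (rows, sorted by the stage of their highest value) in the 4 crown libraries (columns), as log10 RPM by colour with grey for a listed 0. wheat_miR1202 and wheat_miR1560 stand out as the brightest rows, and grey cells mark the 17 entries with a 0.

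An entry was called lower or higher in a pair of libraries when its log2 ratio lay beyond 1 and 5 RPM was exceeded in either library, a listed 0 being taken as 3 reads (0.137 to 0.146 RPM). The share of all listed miRNAs over 5 RPM that passed the same rule is the background given beside each count. From three-leaf to dormancy, 10 of 46 entries over 5 RPM passed, 4 lower and 6 higher, against backgrounds of 16.3% lower and 10.3% higher (26.6% in either direction). From dormancy to green-up 22 of 46 passed, 19 lower and 3 higher, with backgrounds of 28.8% lower and 17.2% higher (46.0% in either direction). From green-up to jointing, 18 of 35 passed, 14 lower and 4 higher, against 37.8% lower and 16.4% higher (54.2%). Over the whole span from three-leaf to jointing 35 of 46 passed, 29 lower and 6 higher, against 54.6% lower and 16.9% higher (71.5%). The total share that passed was thus near the background in every one of these pairs, while lower calls made up 41.3% of the entries over 5 RPM from dormancy to green-up.

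The pairs that skip a stage gave the same picture. From three-leaf to green-up 18 entries were lower and 5 higher of 45, with backgrounds of 34.8% and 15.6% (50.4%). From dormancy to jointing 32 were lower and 2 higher of 45, with backgrounds of 53.2% and 17.2% (70.4%). In any of the 6 pairs 42 of the 48 entries over 5 RPM passed, with a background of 88.4%. The other 18 entries never exceeded 5 RPM and could not pass, and 14 of them had a 0 in some library. The 6 that exceeded 5 RPM and passed in no pair as deposited were wheat_miR128, wheat_miR465, wheat_miR947, wheat_miR1544, wheat_miR1617 and wheat_miR1686, named here after their values were seen. wheat_miR1617 had 6.6, 7.26, 8.41 and 7.21 RPM, a range of 1.27-fold as deposited. After scaling to the summed RPM its log2 ratio from three-leaf to jointing was 1.18, past the threshold, while those of wheat_miR128, wheat_miR465 and wheat_miR1686 were 0.17, 0.28 and 0.13.

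The median log2 ratio of the entries over 5 RPM was 0.11 from three-leaf to dormancy, -0.66 from dormancy to green-up, -0.75 from green-up to jointing and -1.44 from three-leaf to jointing. Over all listed miRNAs it was -0.01, -0.28, -0.70 and -1.25. The order of the libraries was also counted, over all entries whether called or not. In 34 of the 66 entries both early libraries (three-leaf and dormancy) exceeded both later ones, which was the case for 37.9% of all listed miRNAs. The opposite order was found in 4 entries, against 11.2% of all listed. With libraries scaled to the summed RPM, the early order remained in 25 entries (37.9%) and in 25.9% of all listed, and the late order held in 7 (10.6%) and in 21.6% of all listed. Of the 40 entries above 0 at three-leaf and jointing, 37 were lower at jointing as deposited and 26 after this scaling. Among those also over 5 RPM in either library, 30 of 33 entries and 147 of 193 listed miRNAs were lower as deposited. Dormancy was the stage of the highest value for 27 entries, three-leaf for 24, green-up for 10 and jointing for 5, and after scaling to the summed RPM these were 23, 17, 13 and 13. Over all listed miRNAs the shares were 29.6%, 30.5%, 23.6% and 16.4% as deposited and 23.3%, 21.6%, 24.4% and 30.7% after scaling.

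The 21-nt entries and the 24-nt known miRNAs parted between dormancy and green-up. Over sequences above 5 RPM in either library, the median log2 ratio was -0.68 for the 37 entries of 21 nt, -0.41 for the 113 known miRNAs of 21 nt and 0.52 for the 53 known miRNAs of 24 nt. Among the 21-nt entries 16 were lower and 3 higher. Among the 24-nt known miRNAs 6 were lower and 16 higher, and 9 of these 16 started from a 0. Restricted to sequences above 0 in both libraries, the medians were -0.65, -0.42 and 0.29. From green-up to jointing the order was no longer apparent, at -0.86, -0.58 and -0.92. From three-leaf to jointing the medians were -1.36, -1.42 and -0.09. Scaling moves all 3 sets by the same amount and leaves their distances as they are, and no test of these distances was possible with 1 library per stage.

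**Figure D3:**
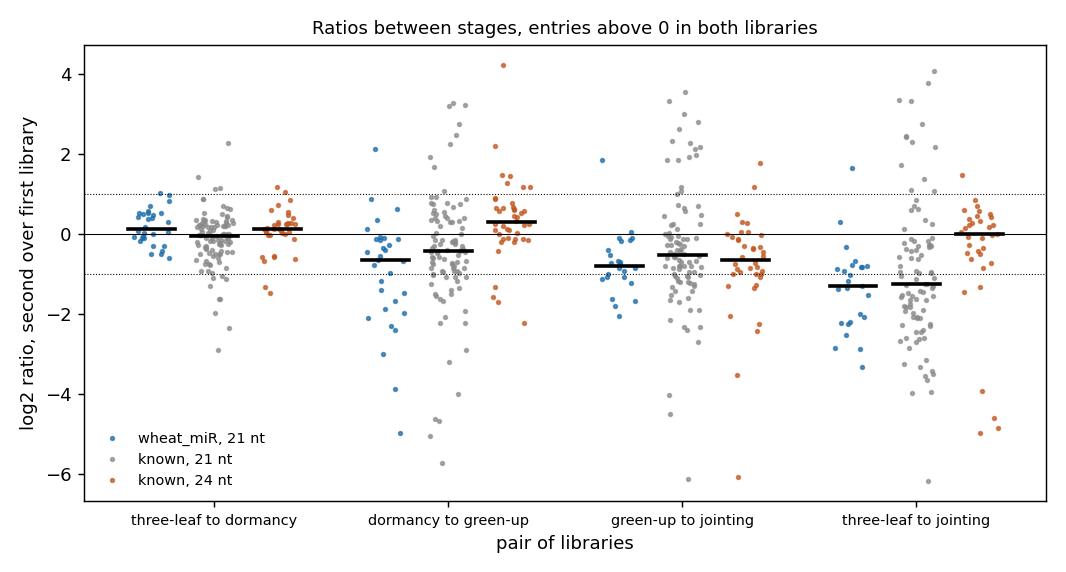
Log2 ratio of the second over the first library (vertical axis) for each wheat_miR entry of 21 nt, known miRNA of 21 nt and known miRNA of 24 nt (points) above 0 in both libraries and over 5 RPM in either, for 4 pairs of libraries (horizontal axis), with the median as a bar and the thresholds of -1 and 1 dotted. From dormancy to green-up the bars stand at -0.65, -0.42 and 0.29.

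Entries of other lengths were few. All 7 of 22 nt exceeded 5 RPM at three-leaf or jointing and passed between these stages, 6 as lower and 1, wheat_miR1560, as higher. The backgrounds for this pair were 54.6% lower and 16.9% higher (71.5%), and 2 of the 7 calls rested on a 0. Under either scaling 5 passed, without wheat_miR193 and wheat_miR1306, whose log2 ratios were then -0.50 and -0.68. wheat_miR1255 had 17.12, 24.35, 9.5 and 3.85 RPM in stage order, and wheat_miR810 17.07, 7.65, 5.62 and 3.7 RPM. The third of them, wheat_miR193, had 8.03, 7.11, 4.66 and 2.74 RPM. wheat_miR810 was the only entry above 0 in both libraries that passed as lower from three-leaf to dormancy (log2 ratio -1.16, interval -1.44 to -0.89, which reaches inside the threshold). wheat_miR1372, another of the 22-nt entries, had 16.15, 9.64, 7.95 and 0.72 RPM. Its last value rests on 15 reads (95% Wilson interval 0.437 to 1.19 RPM), and its fall of 4.49 on the log2 scale from three-leaf to jointing was the deepest between these stages of any entry above 0 in both. Its log2 ratio was -3.46 over the last step alone (-4.33 to -2.70). miR2118, of a family that starts phased siRNAs in grasses, shared 14 bases with 2 mismatches with it. This sequence was listed only at green-up, at 4.7 RPM. Others of the family had another profile, with miR2118c at 11.9, 13.9, 0 and 69.5 RPM and miR2118a-3p at 0, 0.6, 0 and 1.5 RPM. Neither of these was related to wheat_miR1372 by the criterion. Of the 23-nt entries, wheat_miR2133 stayed between 0.87 and 2.21 RPM and wheat_miR678 between 0 and 3.94 RPM, so that neither could pass.

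A listed 0 was part of many calls. Of the 31 entries with a 0 in some library, 17 exceeded 5 RPM in another and 14 did not. These 17 were 25.8% of the entries, and 27.3% of the known miRNAs had such values. A 0 entered 8 of the 10 calls from three-leaf to dormancy, 7 of 22 from dormancy to green-up, 5 of 18 from green-up to jointing and 13 of 35 from three-leaf to jointing. Among the known miRNAs a 0 entered 33 of 57, 31 of 93, 40 of 111 and 54 of 151 calls in the same order of pairs. The smallest value listed for an entry corresponded to 21, 18, 5 and 5 reads in stage order, and how smaller counts were treated is not given in the sources used here. Folds against a 0 are therefore lower bounds only if the 0 stands for 3 reads or fewer.

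The largest of these contrasts was that of wheat_miR1560, an entry of 22 nt. It was listed at 0 at three-leaf, 1516.89 RPM (31147 reads) at dormancy, 0 at green-up and 277.01 RPM (5762 reads) at jointing. That made it the highest entry at dormancy. With a 0 taken as 3 reads, it was 10959-fold higher there than at three-leaf and 11067-fold higher than at green-up. wheat_miR2185 had the same order of stages at a lower level, with 0, 22.69, 0 and 11.97 RPM. The reverse order, with 0 at dormancy and jointing, was shown by wheat_miR5099 at 7.61, 0, 8.63 and 0 RPM, and at under 5 RPM by wheat_miR652 (2.58, 0, 2.65 and 0 RPM) and wheat_miR4740 (0.97, 0, 0.32 and 0 RPM). Such alternation between stages was found in 5 entries (7.58%) and in 12 known miRNAs (4.26%).

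Other entries were listed only early or late. wheat_miR1576 had 73.22 and 68.67 RPM at three-leaf and dormancy and 0 at both later stages. With the 0 taken as 3 reads, this was 501-fold lower at green-up than at dormancy. wheat_miR354, with 8.77 and 15.63 RPM, was also at 0 in both later libraries. wheat_miR1615 had 13.1, 9.2, 0 and 1.78 RPM, so that it was low but listed again at jointing. wheat_miR1322 was listed at three-leaf alone, at 16.93 RPM. In wheat_miR669 (22.19, 24.93, 14.44 and 0 RPM), wheat_miR553 (6.55, 11.83, 2.92 and 0 RPM), wheat_miR1613 (6.55, 9.16, 2.51 and 0 RPM) and wheat_miR2567 (6.09, 8.72, 0.59 and 0 RPM) only jointing was at 0. wheat_miR127 was the only entry listed in both later libraries and neither early one. A peak in the middle stages was seen in wheat_miR1826, at 0, 55.81, 28.51 and 0 RPM. wheat_miR1737 had 0, 8.81, 11.15 and 6.73 RPM, and wheat_miR866 0, 8.43, 0.27 and 0.24 RPM, so that wheat_miR866 was high at dormancy (173 reads) and rested on 6 and 5 reads in the later libraries. wheat_miR1306 was missing at dormancy alone, at 7.52, 0, 3.52 and 2.26 RPM.

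Few entries were higher at a later stage without a 0. wheat_miR523 had 44.94, 43.15 and 38.88 RPM in the first 3 libraries and 139.99 RPM at jointing. Its log2 ratio was 1.85 from green-up to jointing (1.74 to 1.96) and 1.64 from three-leaf to jointing (1.53 to 1.75), and as deposited no other entry above 0 in all libraries passed as higher over the whole span. After either scaling wheat_miR947 and wheat_miR1617 passed as well, at 1.34 and 1.18 under the summed RPM. wheat_miR1620, an entry of 20 nt, fell from 45.68 RPM at three-leaf through 33.46 to 17.54 RPM at green-up, a log2 ratio of -1.38 that both scalings bring within the threshold (-0.97 and -0.91), and stood at 40.05 RPM at jointing. Its log2 ratio over the last step was 1.19 (1.01 to 1.37). wheat_miR450 had 18.96 RPM at three-leaf and 38.62 RPM at dormancy, a log2 ratio of 1.03 whose interval reaches below the threshold, to 0.85. wheat_miR947 varied little as deposited, at 27.45, 17.97, 32.71 and 33.65 RPM, and passed as higher from dormancy to green-up, from dormancy to jointing and from three-leaf to jointing only after scaling.

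Within the group of wheat_miR1202, the entry of 20 nt followed the longer one closely. wheat_miR1356 had 36.08, 38.08, 25.13 and 15.91 RPM, which was 2.39%, 2.46%, 2.54% and 2.71% of the reads of both entries. The lowest and highest of these shares have 95% Wilson intervals of 2.23% to 2.56% and 2.44% to 3.01%, which overlap. The known miR9670-3p, which pairs with wheat_miR1202 over 17 bases and leaves 3′ overhangs of 2 nt at each end, was listed at 3.4, 1.7, 9.4 and 2.1 RPM. wheat_miR1202 thus exceeded it 103-fold to 887-fold.

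**Figure D4:**
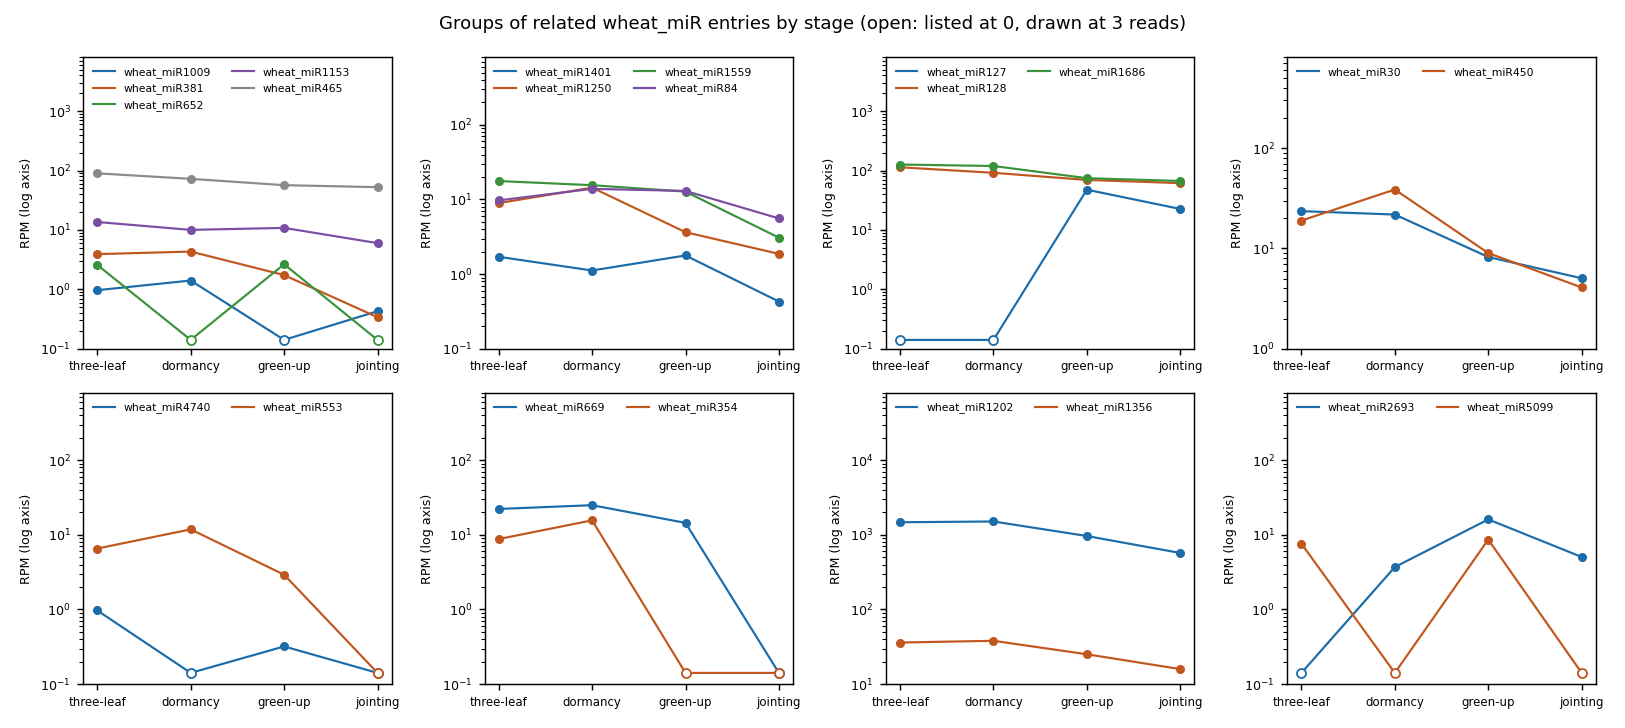
RPM (log axis) of the 22 wheat_miR entries in 8 groups of related sequences (panels) in the 4 crown libraries (horizontal axis), with open circles for a listed 0, drawn at 3 reads. wheat_miR1356 runs parallel to wheat_miR1202, and wheat_miR127 appears at 47.56 RPM at green-up while wheat_miR128 and wheat_miR1686 are lower at each stage than at the one before.

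The group of wheat_miR127 held near-identical entries with unlike values. wheat_miR127 and wheat_miR128 differ by U2C, counted from 1 at the 5′ end of wheat_miR127, and wheat_miR1686 starts 3 bases before wheat_miR128 on the same sequence. wheat_miR128 had 113.4, 91.51, 69.4 and 61.39 RPM and wheat_miR1686 126.09, 119.07, 74.29 and 66.68 RPM, and wheat_miR128 made up 43.5% to 48.3% of their shared reads. wheat_miR127 was at 0, 0, 47.56 and 22.55 RPM. Its share of the reads of wheat_miR127 and wheat_miR128 was 0 of 2458 reads and 0 of 1879 reads in the early libraries, and 40.7% (38.8% to 42.6%) at green-up and 26.9% (24.8% to 29.0%) at jointing. The summed RPM of the 3 entries changed less than wheat_miR127 alone, from 239.49 over 210.58 and 191.25 to 150.62. From dormancy to green-up the log2 ratio of this sum was -0.14 as deposited and 0.20 after scaling to the summed RPM, so that its sign depends on the scaling.

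In the group around wheat_miR465, 1 entry held most of the reads. wheat_miR465 had 89.64, 72.42, 56.7 and 52.5 RPM, which was 78.8% to 88.6% of the group. wheat_miR1153 followed with 13.61, 10.03, 10.83 and 6.01 RPM, while wheat_miR381 had 3.92, 4.33, 1.74 and 0.34 RPM and wheat_miR1009 0.97, 1.41, 0 and 0.43 RPM. wheat_miR381 and wheat_miR1153 have the same frame and seed and differ by G11U and A14G, counted from wheat_miR381. wheat_miR381 made up 22.4%, 30.2%, 13.8% and 5.30% of their shared reads, with intervals of 25.2% to 35.6% at dormancy and 2.59% to 10.5% at jointing that do not overlap. The known miR1136 of the same frame was more abundant than any entry of the group, at 190.8, 236.7, 197.1 and 98.7 RPM. The group sum was 110.72, 88.19, 71.92 and 59.28 RPM, and its log2 ratio from three-leaf to jointing, -0.90, became 0.15 after scaling.

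The group of wheat_miR1559 was low, and all 4 of its values were lower at jointing than at green-up. wheat_miR1559 had 17.67, 15.54, 12.75 and 3.08 RPM, a fall by 2.05 on the log2 scale from green-up to jointing (-2.47 to -1.65). wheat_miR84 had 9.73, 13.88, 13.02 and 5.58 RPM and was lower by 1.22 over the same step, with an interval of -1.55 to -0.91. Under the scalings this became -0.58 and -0.64, within the threshold, whereas wheat_miR1559 still passed. wheat_miR1250 fell earlier, by 1.98 from dormancy to green-up, at 8.95, 14.42, 3.65 and 1.87 RPM. wheat_miR1401, at 1.71, 1.12, 1.78 and 0.43 RPM, was under the level in every library, and its log2 ratio over the last step was -2.05 (-3.27 to -0.97). The group sum of 38.06, 44.96, 31.2 and 10.96 RPM gave a log2 ratio of -1.51 over the last step and -0.87 after scaling to the summed RPM. wheat_miR84 was related to 23 known miRNAs, wheat_miR1401 to 14 and wheat_miR1559 to 13, more than any other entry.

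Both entries of the pair wheat_miR30 and wheat_miR450 fell after dormancy. wheat_miR30 had 23.53, 21.77, 8.22 and 5.05 RPM, with a log2 ratio of -1.41 from dormancy to green-up (-1.66 to -1.15). wheat_miR450 fell by 2.10 over the same step (-2.33 to -1.87), from 38.62 to 9 RPM, and by 1.14 to 4.09 RPM at jointing. Under the scalings the latter became -0.50 and -0.56, within the threshold, and the ratio of wheat_miR30 from dormancy to green-up became -1.07 and -0.97, the second within it. Their summed log2 ratio from dormancy to green-up was -1.81 as deposited and -1.47 after scaling. The pair of wheat_miR669 and wheat_miR354 also ended at 0, wheat_miR354 at green-up and wheat_miR669 at jointing.

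The pair first found in crowns had the study's own rule behind its detection, since new entries needed over 50 reads in at least 2 libraries and a detected miRNA*, so that its presence is no result. The hairpins given with the study are shown in DNA letters, with the miRNA and then the miRNA* in capitals.
wheat_miR2693: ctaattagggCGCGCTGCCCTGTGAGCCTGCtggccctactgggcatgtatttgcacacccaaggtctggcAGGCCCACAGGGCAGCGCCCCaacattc
wheat_miR5099: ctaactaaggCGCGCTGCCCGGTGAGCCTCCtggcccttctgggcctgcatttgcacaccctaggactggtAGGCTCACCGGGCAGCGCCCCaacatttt
The hairpins of 99 and 100 nt differ by 14 edits. Their miRNAs differ by U11G and G20C and their miRNA* by C5U and A9C, counted from the 5′ end of the wheat_miR2693 sequence. Folded here, they had minimum free energies of -64.9 and -61.9 kcal per mol, and in each fold the miRNA and miRNA* left 3′ overhangs of 2 nt. Although the seeds are the same, the values did not run together. wheat_miR2693 was 4.35-fold higher at green-up than at dormancy, and wheat_miR2693 made up 65.1% (61.0% to 69.0%) of the reads of both at green-up, the only library in which both were listed. Neither miRNA* was among the 348 listed sequences.

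Of the 66 entries, 30 (45.5%) were related to a known miRNA by the same criterion, 19 on the same strand and 19 on the opposite strand, with 8 on both. This share has no background, since the known miRNAs were not searched against each other. Of the 96 pairs of an entry and a known miRNA, wheat_miR84 had 23, wheat_miR1401 14 and wheat_miR1559 13. In the opposite-strand search 52 pairs were found, and in 9 of them, with 7 entries, the predicted duplex left 3′ overhangs of 2 nt on each side, the form of a miRNA and its miRNA*. The search for overhangs was added after the sequences were seen. No genome was used, so whether both strands come from 1 hairpin was not tested. The entry and its partner are shown for 3 such pairs whose values follow, with the seeds in capitals.
wheat_miR523: uACGGCCUgaugacauccacg
miR9676-5p: uGGAUGUCaucguggccguaca
wheat_miR1826: aGACGAGGgugaucauaaacu
miR9675-3p: uUUAUGAUcacucucguuuug
wheat_miR354: cAUUGACCcaacugcaggugc
miR1847-5p: aCCUGCAGuugggccaaugac
wheat_miR523 and miR9676-5p had nearly equal values in every library, the latter at 55.1, 42.6, 35.9 and 134.9 RPM, and their ratio lay between 0.816 and 1.08. wheat_miR1826 was listed only at dormancy and green-up, whereas miR9675-3p had 441.1, 569.6, 75.9 and 28.4 RPM. Their ratio was 0.0980 at dormancy and 0.376 at green-up. wheat_miR354 and miR1847-5p were both higher early, the latter at 14.9, 16.7, 5.2 and 3.5 RPM, and their ratio was 0.589 and 0.936 in the 2 libraries that listed both. wheat_miR1576, which was at 0 in both later libraries, was related on the opposite strand over 16 bases with 2 mismatches to miR9778, at 602.6, 705, 44.3 and 60.3 RPM, but with predicted overhangs of 5 nt.

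**Figure D5:**
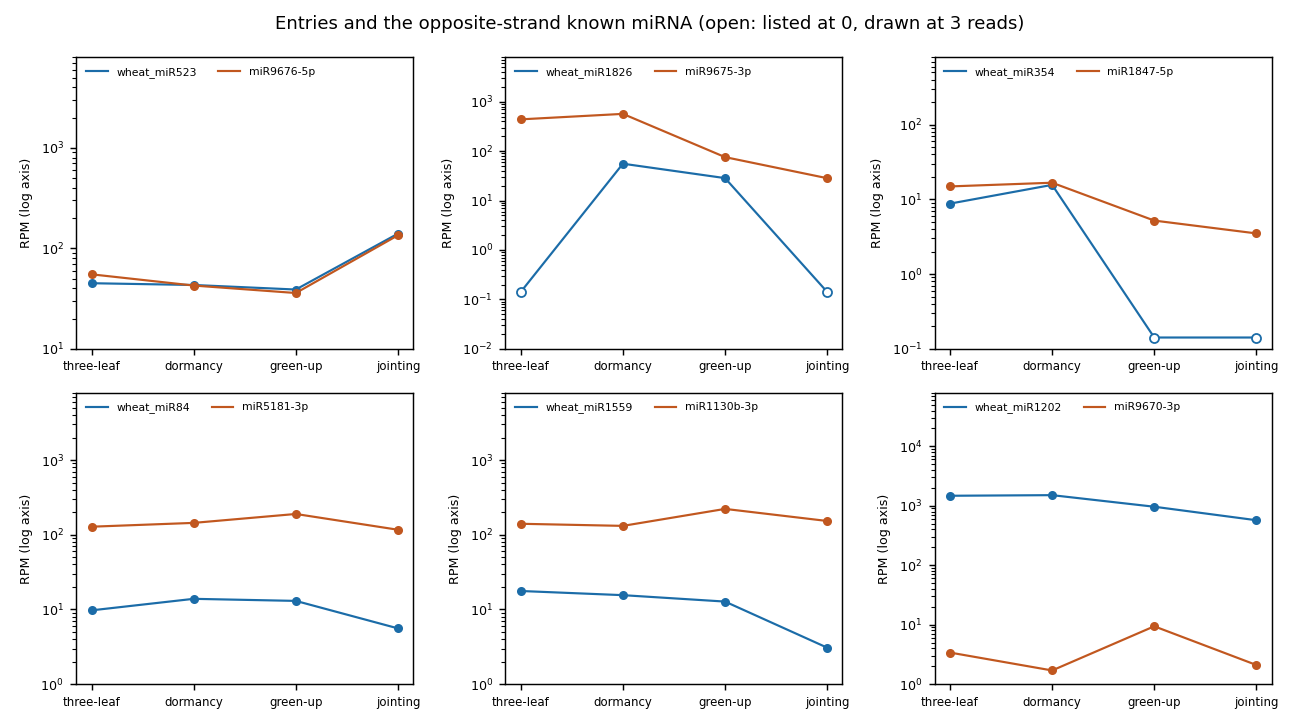
RPM (log axis) of 6 wheat_miR entries and of the known miRNA that pairs with each on the opposite strand with 3′ overhangs of 2 nt, in the 4 crown libraries (horizontal axis), with open circles for a listed 0, drawn at 3 reads. The lines of wheat_miR523 and miR9676-5p nearly coincide, and those of the other panels stand apart in at least 1 library.

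The group of wheat_miR1559 gave 5 of the 9 duplexes, with wheat_miR84, wheat_miR1401 and wheat_miR1559. wheat_miR84 paired with miR5181-3p over 19 bases without a mismatch, and miR5181-3p stood at 128.2, 144.2, 189.8 and 116.7 RPM. wheat_miR84 reached 0.0478 to 0.0963 of this. wheat_miR1559 paired with miR1130b-3p over 19 bases with 1 mismatch, and its ratio to miR1130b-3p fell from 0.126 at three-leaf to 0.0201 at jointing. Full complementarity over the whole entry, without such overhangs, was found for wheat_miR1250 with the 24-nt miR818a over 21 bases. miR818a was listed at dormancy and green-up only, at 24.2 and 36 RPM, where wheat_miR1250 had 14.42 and 3.65 RPM.

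On the same strand, 6 entries shared a stretch free of mismatches with a known miRNA. wheat_miR259 and miR1432-5p, a miRNA conserved among grasses, overlap by 15 bases, which are in capitals.
wheat_miR259: GAGAUGACACCGACGccgauc
miR1432-5p: ucaggaGAGAUGACACCGACG
wheat_miR259 had 5.86, 5.84, 0.73 and 0.58 RPM, on 127, 120, 16 and 12 reads, and was 8-fold lower at green-up than at dormancy (log2 interval -3.85 to -2.24). miR1432-5p had 17.8, 9.9, 2.6 and 2.8 RPM, so that both were high early and low late, and the entry reached 0.207 to 0.590 of it. wheat_miR692 overlapped miR398a-3p, which targets copper superoxide dismutase transcripts, by 14 bases, but it was listed only at green-up, at 0.23 RPM. wheat_miR1255 shared 14 bases with miR396c-3p, which stood at 155.4, 179.1, 340.4 and 400 RPM. The 2 ran apart after dormancy, when wheat_miR1255 fell from 24.35 to 3.85 RPM at jointing. On the opposite strand wheat_miR1255 was also related to miR396b-5p, over 14 bases with 1 mismatch. miR396b-5p had 2094.3, 1734.1, 653.8 and 769.2 RPM and was, like wheat_miR1255, lower in both later libraries.

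wheat_miR1620 shared 14 bases with 1 mismatch with the known miR6478, and wheat_miR2129, which was related to no known miRNA by this criterion, had some of the same bases in the same places. The sequences of wheat_miR1620, wheat_miR2129 and miR6478 were set side by side after they had been seen, and the bases identical in all 3, with N for the others, gave UNGNNNAGNUGGU. Searched on both strands, it was found in those 3 of 348 miRNAs (0.862%) as listed and in the reverse complement of none. Capitals mark the match.
wheat_miR1620: ggccuauUAGCUCAGCUGGU
wheat_miR2129: gucugggUGGUGUAGUUGGUu
miR6478: ccgaccuUAGCUCAGUUGGU
The motif was made from these sequences, so that the match is a description. None of the 3 sequences was compared with tRNA or other classes of RNA, so that their origin was not tested. wheat_miR1620 and miR6478 were both lowest at green-up, miR6478 at 300, 277.4, 126.1 and 147.3 RPM. wheat_miR2129 had 12.04, 23.67, 7.36 and 6.83 RPM, with its peak at dormancy.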

How the data were processed

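Small RNA of crown tissue was sequenced by the authors on a BGISEQ-500 from 4 libraries, each pooled from 3 biological replicates. They kept reads of 18 to 30 nt, used SOAP to discard reads that matched repeats or rRNA, tRNA, snRNA and snoRNA, and assigned known miRNAs by BLASTN against miRBase with fewer than 2 mismatches, the wheat_miR entries by comparison with miRNAs found before in leaves, and the 2 new ones with MIREAP. Tool versions and the genome build are not given in the sources used here. The authors deposited RPM (tags per 1000000 mapped reads, headed TPM), rounded to 2 decimals for the entries and mostly 1 for known miRNAs, and not divided by length. Reads that the discarding steps removed, or that were counted under several overlapping names, change these values.

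Mapped reads were recovered from the steps of the entries' values, which came within 0.107 reads of whole numbers. Intervals are 95% Wilson intervals of shares and exact binomial intervals of log2 ratios. They cover counting error only, since replicates were pooled and the reads carry no molecular identifier. The fold and level thresholds follow the study's methods. The recovery, calls and sequence search were tested on simulated data. Alternatives covered the value of a 0, the level, the fold, the scaling, the counting interval and the definition of related sequences. The motif, the overhangs, the smallest listed reads as the value of a 0 and the exclusion of zeros were added after the data were seen. The members and lists were chosen with earlier results of these data known. Named were the 8 entries with the highest RPM in any library, every entry of a related group, the 2 new ones, wheat_miR1356, wheat_miR259, wheat_miR652, wheat_miR30 and wheat_miR1372, every entry at 0 in one library and over 5 RPM in another, every entry that passed as higher, those of 20, 22 or 23 nt that passed, and known miRNAs related in sequence to an entry. Other names were chosen after their values were seen.

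Python 3.11.15, numpy 2.4.6, scipy 1.17.1, matplotlib 3.10.9 and ViennaRNA 2.7.2 were used. The qRT-PCR and target assays, the leaf libraries and genome positions were not analysed here. The row of wheat_miR652 names no arm, so that it was not tied to any assay of that miRNA.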

Additional observations from a re-analysis of the deposited data

How the results depend on the processing

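Of 67 alternatives to 9 reported values, 56 stayed within 1.5 times the reported count or within the counting interval of the reported ratio, 9 moved further and 2 turned the direction. The direction turned for the summed RPM of the entries, jointing over three-leaf, which was 0.595 as deposited, 1.23 with libraries scaled to the summed RPM and 1.23 by the median of ratios. Without wheat_miR1202 it was 0.777 as deposited. Much of the scaled rise came from wheat_miR1560, listed at 0 at three-leaf. Without it the entries held 2.21% of the listed sum at three-leaf and 2.32% at jointing, against 2.21% and 2.72% with it. Without a level filter 16 entries passed from three-leaf to dormancy (10 as reported) and 34 from green-up to jointing (18 as reported), and with more than 10 RPM 6 passed from three-leaf to dormancy. With zeros excluded 2 passed from three-leaf to dormancy and 22 from three-leaf to jointing (35 as reported). From green-up to jointing 11 passed under scaling to the summed RPM, and 7 with a log2 ratio beyond 2. At least 5 RPM in all libraries was met by 19 entries, against 35 above 0. Above 0 in all libraries were 53.0% of the entries and 58.5% of the known miRNAs. Over 5 RPM in all were 28.8% and 43.6%.

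Scaling changed the split of the calls as well. From three-leaf to jointing, 19 entries were lower and 8 higher under either scaling (29.6% of the calls higher, against 43.0% over all listed miRNAs). Under the summed RPM, 20 were lower and 5 higher from dormancy to jointing (20% higher, against 45.0%), 18 and 4 from dormancy to green-up (18.2%, against 49.6%), 7 and 4 from green-up to jointing (36.4%, against 47.2%) and 10 and 5 from three-leaf to green-up (33.3%, against 53.3%). By the median of ratios these were 20 and 6, 16 and 5, 8 and 4, and 10 and 5, with 46.1%, 55.1%, 45.8% and 55.6% higher over all listed. The cause of the lower sum at jointing was not tested. A listed 0 may stand for any count below the smallest listed for an entry (21, 18, 5 and 5 reads in stage order). With 1 pooled library per stage, the spread between plants is not known.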
